A study of Mus musculus with 7 samples.

Results

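Mitochondrial tRNAs were the tRNAs that the table of mean levels in oligodendrocyte progenitor cells (OPCs) and oligodendrocytes (OLs) listed but the table of cytosolic tRNAs did not. They were chosen by name alone. They made up 45 of the 262 rows in the series, and the other 217 rows were cytosolic isodecoders, which are tRNAs that share an anticodon but differ in body sequence. tRNA levels had been measured by QuantM-seq, in which deacylated tRNA is ligated to a double-stranded adapter at its mature ends before reverse transcription. The 7 libraries came from mouse cells of a 129S/SvEv background: OPCs derived from epiblast stem cells and grown with bFGF and PDGFA (n = 3), OLs made from OPCs with thyroid hormone T3 (n = 2), and astrocytes made from OPCs with BMP4 (n = 2). According to the study the OL cultures still held undifferentiated cells, and tRNA data hold no marker mRNA by which the cell types could be checked. The study calls the libraries of a group biological replicates, and the OLs came from some of the OPC replicates.

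The mammalian mitochondrial genome encodes its own set of tRNAs, which read the codons of a small set of respiratory chain and ATP synthase subunits translated inside the organelle. Both strands are transcribed as long precursors in which tRNAs lie between the rRNAs and mRNAs. RNase P and the nuclease ELAC2 cut the tRNAs out, and TRNT1 adds the 3′ CCA end to which the amino acid is attached. Nuclear genes supply the aminoacyl-tRNA synthetases of the organelle.

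In the GENCODE annotation of GRCm38, the assembly also called mm10, the mitochondrial chromosome held 22 tRNA genes beside 13 protein-coding and 2 rRNA genes. Of the tRNA genes 14 lay on the strand of most genes and 8 on the other. Their lengths ran from 59 to 75 bases with a median of 68.5, and their GC content from 17.1% to 44.9% with a median of 34.1%. Examples are shown because they mark the extremes of the class and its most alike pair, with the anticodon in capitals. mt-Tl1 (leucine, anticodon UAA, chrM:2676-2750, plus strand) was the longest. mt-Ts2 (serine, anticodon GCU, chrM:11613-11671, plus strand) was the shortest, and this tRNA is known to lack the D arm of the cloverleaf. mt-Tm (methionine, anticodon CAU, chrM:3845-3913, plus strand) had the highest GC content and mt-Td (aspartate, anticodon GUC, chrM:6942-7011, plus strand) the lowest. mt-Ty (tyrosine, anticodon GUA, chrM:5260-5326, minus strand) and mt-Th (histidine, anticodon GUG, chrM:11546-11612, plus strand) were the closest of 231 pairs. Each is given 5′ to 3′ on the strand of its gene.
mt-Tl1: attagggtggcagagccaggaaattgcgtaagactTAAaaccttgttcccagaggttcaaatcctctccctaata
mt-Ts2: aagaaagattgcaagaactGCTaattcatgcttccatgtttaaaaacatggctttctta
mt-Tm: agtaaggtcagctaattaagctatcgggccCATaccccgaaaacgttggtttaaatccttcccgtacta
mt-Td: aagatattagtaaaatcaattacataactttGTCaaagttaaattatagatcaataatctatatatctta
mt-Ty: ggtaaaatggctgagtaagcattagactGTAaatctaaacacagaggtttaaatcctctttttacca
mt-Th: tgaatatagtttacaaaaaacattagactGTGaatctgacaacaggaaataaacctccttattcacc

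mt-Ty and mt-Th were identical at 66.2% of aligned positions, against a median of 51.9% over all pairs. Base 9, counted from 1 at the 5′ end and known in mammalian mitochondrial tRNAs as a site of methylation, was A in 13 genes, G in 6, C in 2 and T in 1. The last encoded base, which directly precedes the CCA end, was A in 17 of 22 genes. Neighbouring genes overlapped in 2 cases, mt-Ti with mt-Tq by 3 bases on opposite strands and mt-Ts2 with mt-Tl2 by 1 base on the same strand. These are properties of the reference genes. The measured rows carry database identifiers with no amino acid or anticodon, the files do not pair the identifiers with genes, and no row was assigned to a gene by name.

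The mitochondrial tRNAs took a smaller share of tRNA reads in OLs than in OPCs or astrocytes. In OPC replicates 1 and 2 they held 6.82% (95% Wilson interval 6.78% to 6.86%) and 6.94% (6.90% to 6.98%) of all reads assigned to tRNAs, and in OPC replicate 3 they held 4.98% (4.95% to 5.01%). In OL replicates 1 and 2 the share was 3.55% (3.52% to 3.58%) and 3.90% (3.87% to 3.93%). In the astrocyte libraries it was 7.74% (7.70% to 7.77%) and 7.88% (7.85% to 7.91%). Both OL libraries lay below every OPC library and both astrocyte libraries above every OPC library, so the 3 groups did not overlap. Such absence of overlap was also common among tRNA pools in general: of the 53 pools compared, it held for 49.1% in OLs against OPCs, 34% in astrocytes against OPCs and 58.5% in OLs against astrocytes. The mean share was 6.25% ± 1.1 (SD, n = 3) for OPCs. It was 3.72% ± 0.247 (SD, n = 2) for OLs, and for astrocytes 7.81% ± 0.10 (SD, n = 2). The OPC libraries had the widest spread, and OPC replicate 3 lay nearer to the OL libraries than to the other OPC libraries. The nearest OPC and OL libraries were 1.08 percentage points apart, and the nearest OPC and astrocyte libraries 0.800 points.

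**Figure D1:**
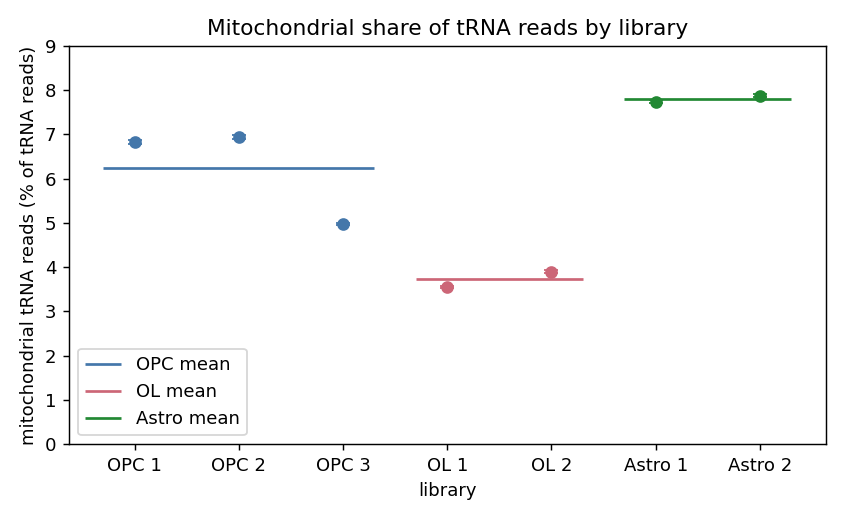
Mitochondrial tRNA reads as a percent of all reads assigned to tRNAs (y axis) in each of the 7 libraries (x axis), with 95% Wilson intervals that are mostly smaller than the points and a horizontal line at each group mean. The OL libraries sit at 3.55% and 3.90%, below the lowest OPC library at 4.98%, and the astrocyte libraries sit above 7.7%.

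These shares rested on 91327, 104732 and 121167 mitochondrial reads in OPC replicates 1 to 3, on 56458 and 62580 in the OL libraries and on 181426 and 206992 in the astrocyte libraries. The counting intervals were narrower than the spread between libraries of a group, least so in astrocytes. They do not cover amplification, since the libraries carried no molecular identifiers. Depth was uneven across libraries, with 1339021 to 2432673 tRNA reads in OPCs, 1590312 and 1605007 in OLs and 2344932 and 2627351 in astrocytes. OPC replicate 3 was the deepest OPC library and had the lowest mitochondrial share among them, and the part of depth in the result was not tested. In bulk cultures a smaller number of cells rich in mitochondrial tRNA and less of it per cell cannot be told apart, and neither can fewer mitochondrial tRNAs and more cytosolic ones.

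Set against the cytosolic tRNAs, the mitochondrial pool had 7.32, 7.45 and 5.24 reads per 100 cytosolic reads in OPC replicates 1 to 3 and 3.68 and 4.06 in the OL libraries. In the astrocyte libraries it was 8.39 and 8.55. The geometric mean ratio was 6.59 per 100 in OPCs, 3.86 in OLs and 8.47 in astrocytes. The log2 difference of OLs from OPCs was -0.77, a ratio of 0.587, and between single libraries the ratio ran from 0.494 to 0.774. By a two-sided exact permutation test of the mean log2 ratios this gave p = 0.2 (3 against 2 libraries, smallest possible p 0.1), adjusted to 0.33 over the 3 comparisons. The log2 difference of astrocytes from OPCs was 0.36, a ratio of 1.29, with an exact permutation p = 0.3 and the same adjusted value of 0.33. Without OPC replicate 3 the log2 difference of astrocytes from OPCs was 0.20, and that of OLs from OPCs -0.93. OLs differed from astrocytes by -1.13 on the log2 scale, a ratio of 0.456, with an exact permutation p = 0.33, which is the smallest that 2 against 2 libraries allow. None of these tests could pass a threshold of 0.05 at these group sizes.

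As 1 pool among the 52 cytosolic anticodon pools, the mitochondrial pool had the lowest fitted change of all 53 pools in OLs against OPCs. Its level was 62461 RPM (reads per 1000000 tRNA reads) in OPCs and 37246 in OLs, and its fitted change was -0.73 on the log2(RPM + 1) scale, with a standard error of 0.175 and a 95% interval of -1.20 to -0.26. The adjusted p was 0.0881 by limma with Benjamini-Hochberg adjustment over the 53 pools, above the threshold of 0.01. No pool passed that threshold in this comparison, so the background share of called pools was 0%, with 26.4% of pools at an unadjusted p under 0.05 and 3 cytosolic pools at an adjusted p under 0.05. The mitochondrial pool was not among those 3, which were Leu-TAA, iMet-CAT and SeC-TCA. The next lowest pool was Cys-GCA with a fitted change of -0.43 (standard error 0.184), followed by Ser-GGA with -0.36, both rare, with 264 and 70.5 RPM on average in OPCs. Of the cytosolic pools 34 had a fitted change above 0 and 17 below, with a median of 0.12. Since all pools share 1 total of reads, the values of one class depend on those of the other.

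The same pool lay at the other end of the order in astrocytes. It averaged 78077 RPM there, and its fitted change against OPCs was 0.34 with a standard error of 0.171 and a 95% interval of -0.11 to 0.79, the third highest of 53. The adjusted p from limma was 0.429. Called pools made up 0%, with 11.3% of pools at an unadjusted p under 0.05. Val-AAC, with a fitted change of 0.31, and Cys-GCA, with 0.42, were its neighbours in that order. In OLs against astrocytes the mitochondrial pool again had the lowest fitted change, -1.07 with a standard error of 0.174 and a 95% interval of -1.51 to -0.63, and it had the smallest p of all pools. The adjusted p from limma was 0.0665, and again 0% of the pools were called, with 18.9% at an unadjusted p under 0.05. Cys-GCA followed at -0.85 and Val-AAC at -0.59. With the 48 pools of at least 100 RPM on average, which leaves the change itself unaltered, the mitochondrial pool passed the threshold in this comparison with a limma adjusted p of 0.000109 and was the 1 pool called. The 3 comparisons share libraries pairwise, so they are not independent.

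**Figure D2:**
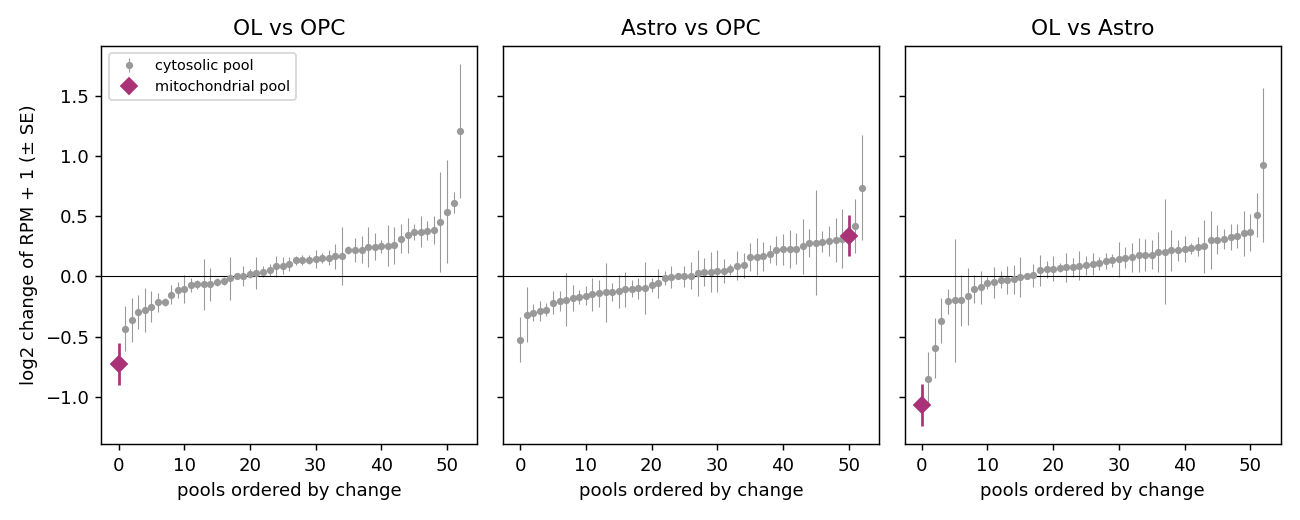
Fitted log2 change of RPM + 1 with its standard error (y axis) for 52 cytosolic anticodon pools (grey) and the mitochondrial pool (diamond), ordered by change (x axis) in each of 3 comparisons. The diamond is the lowest point in OLs against OPCs (-0.73) and in OLs against astrocytes (-1.07), and the third highest in astrocytes against OPCs (0.34).

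For single mitochondrial tRNAs no values by library were at hand. Beside the authors' own comparison of OPCs with OLs, which was not used here, each row has 1 level, the authors' mean of normalised reads over the 3 OPC and 2 OL libraries. Composition is therefore described for both cell types pooled, with no spread and no test. The 45 means summed to 86967. The reads left outside the cytosolic tRNAs, divided by the size factor of each library and averaged over those 5 libraries, gave the same sum, so the 45 rows account for all reads that were not cytosolic. They made up 5.25% of the summed means of all 262 rows. No row was at 0. OPCs weighed more than OLs in these pooled means. Mitochondrial reads over size factor were 116333, 115816 and 79337.2 in OPC replicates 1 to 3. In OL replicates 1 and 2 they were 60652.5 and 62698.8.

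The 45 rows fell into a simple structure. They hold 100 identifiers, since 28 rows join several identifiers and 17 carry 1. The identifiers fall into 5 runs of numbers. In 4 of the runs 22 identifiers follow each other without a gap, as many as the reference has mitochondrial tRNA genes. The fifth run, mtdbD00001473 to mtdbD00001490, has 12 identifiers over 18 numbers. It was aligned with the others through the 11 rows it shares with them, all by the same offset, and its remaining row was placed by its number. All 28 joined rows combined identifiers at the same place of their runs, so each row could be given a place from 1 to 22. For identifiers of the fifth run this repeats the shared offset and is no further check. A place was taken as 1 tRNA and its rows were summed. This rests on the numbering of the identifiers, and the sequences behind them were not analysed here. Of the 22 places 8 had 1 row, 6 had 2 rows, 7 had 3 and 1 had 4.

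At each place a single row carried nearly all reads. The 22 highest rows all had means of 791 or more, and the 23 other rows had means of 91.2 or less, with a median of 2.05 and a lowest value of 0.131. Between 100 and 700, bounds that lie inside the gap between these sets of mitochondrial rows, there were 25 of the 217 cytosolic rows. Together the 23 low rows held 0.239% of the mitochondrial pool. The run from mtdbD00005875 to mtdbD00005896 named the highest row at every place, and its rows held 99.8% of the pool. The run from mtdbD00002042 to mtdbD00002063 shared 21 of those rows and held 97.2% of the pool. The runs differed at place 16 alone, where mtdbD00005890 had a mean of 2202 and mtdbD00002057 a mean of 18.8. The other runs shared fewer of the high rows and held 40.2%, 36.5% and 15% of the pool. Among the 14 places with several rows, the lower rows held from 0.0135% to 4.10% of the reads of the place, with a median of 0.103%. This share exceeded 1% at place 21 (4.10%), place 4 (1.53%) and place 16 (1.07%). At place 21 most of it came from mtdbD00004735, whose mean of 91.2 was the highest of the low rows. How the counting divided reads between rows of 1 place was not tested, so single low rows are uncertain.

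**Figure D3:**
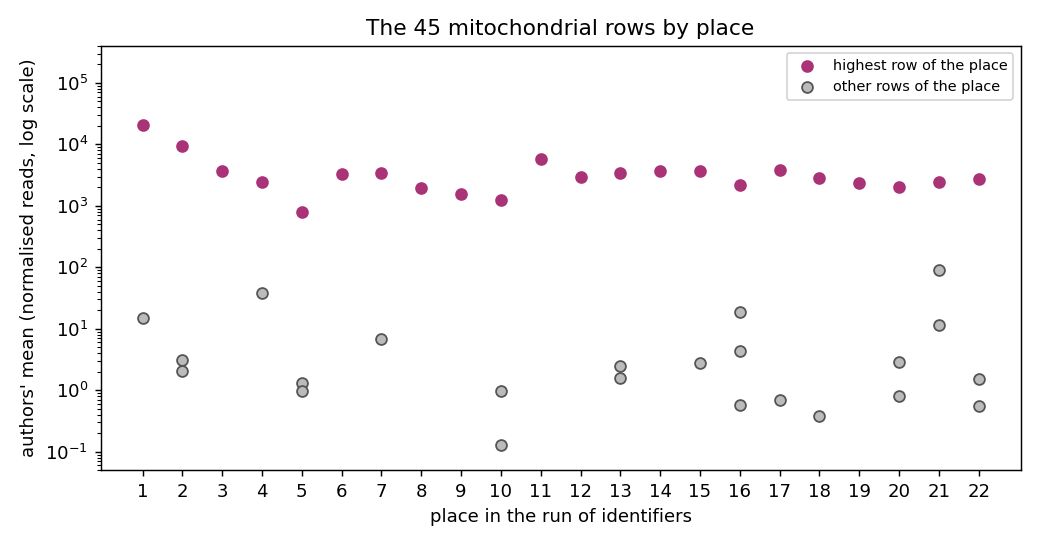
The authors' mean of normalised reads (y axis, log scale) for each of the 45 mitochondrial rows at its place in the run of identifiers (x axis), with the highest row of each place filled and the others in grey. The highest rows lie at 791 or above and the others at 91.2 or below, with nothing between.

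The pool was uneven at its top and flat in its middle. Place 1 (mtdbD00002042, joined with mtdbD00005875) had a mean of 21015 normalised reads and held 24.2% of the mitochondrial pool. Place 2 (mtdbD00002043) had 9322 and held 10.7%, and place 11 (mtdbD00002052) had 5787 and held 6.65%. These 3 places exceeded the equal share of 4.55% and the other 19 fell below it. The leading 3 held 41.5% of the pool together, and 5 places were enough for 50.2%. Place 1 stood 2.25 times above place 2, place 2 stood 1.61 times above place 11, and place 11 stood 1.51 times above the next. From rank 4 to rank 20, the means ran from 3824 to 1538, a span of 2.49 times over 17 tRNAs. Of the 16 steps between neighbours in that stretch 13 were under 1.1 times and the largest was 1.26 times. Without values by library the order within that stretch cannot be set against any error.

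The stretch opened with place 17 at 3824, place 14 at 3729, place 15 at 3693 and place 3 at 3679, which differed by under 1.1 times from each other. It went on with place 7 at 3487, place 13 at 3479, place 6 at 3333, place 12 at 2971 and place 18 at 2864. Below these came place 22 at 2719, place 21 at 2510, place 4 at 2450, place 19 at 2344, place 16 at 2226 and place 20 at 2003. Place 8 at 1938 and place 9 at 1538 closed it. The lowest levels were those of place 10 (mtdbD00002051), at 1263 and 1.45% of the pool, and place 5 (mtdbD00002046), at 793 and 0.912%. Place 5 was the sole tRNA below 1% of the pool, and the highest mean was 26.5 times the lowest. These are means per tRNA and not per base. Division by length could not be made without gene names, and the reference genes differ in length by up to 1.27 times. The part of length, reverse transcription, ligation or read mapping in the order of the places was not tested.

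**Figure D4:**
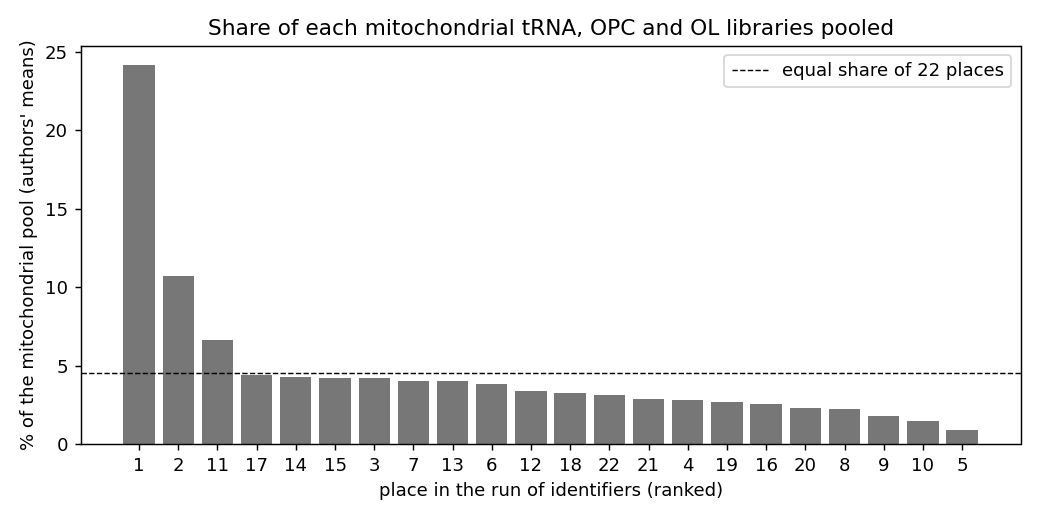
Percent of the mitochondrial pool held by each of the 22 places (y axis, from the authors' means over OPC and OL libraries), ranked from highest to lowest (x axis), with a dashed line at the equal share of 4.55%. Places 1, 2 and 11 lie above the line at 24.2%, 10.7% and 6.65%, and place 5 is lowest at 0.912%.

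On the same scale of authors' means, the mitochondrial pool as a whole ranked 4 of 53 pools, between the cytosolic pools Ala-AGC (106315) and Gln-CTG (85461). That rank pools OPCs with OLs and differed by cell type. In mean RPM the mitochondrial pool lay above Gln-CTG in OPCs (62461 against 51248) and below it in OLs (37246 against 52076). In astrocytes it also lay above Ala-AGC (78077 against 59873). Spread over 22 tRNAs, the mitochondrial pool gave single levels below those of most cytosolic pools. The median mitochondrial tRNA had a mean of 2918, and the median of the 51 cytosolic pools above 0 was 22292. Place 1 reached the level of mid-range cytosolic pools, with 28 of them above it and 24 below. Its neighbours were Ile-TAT at 21172 and Leu-CAG at 20584. The median place had 9 of 52 cytosolic pools below it, and the lowest place had 8. The cytosolic pools above 0 ran from 1.67 to 121521, with the low end set by pools of very few reads. The 22 mitochondrial tRNAs occupied a narrow part of that range. Lower and upper quartiles were 2256 and 3690 for the mitochondrial tRNAs and 4932 and 46453 for the cytosolic pools. Evenness was taken as the exponential of the Shannon entropy, which gives the number of equally abundant members with the same evenness. By it the mitochondrial pool counted as 15.9 of 22 tRNAs (72.1%) and the cytosolic anticodon pools as 30.9 of 51 (60.6%). Cytosolic tRNAs grouped by the amino acid label in their names counted as 16.2 of 23 (70.5%). Those 23 labels kept iMet apart from Met and included SeC and Sup, so they are not 23 amino acids. All these values describe pooled means and were not tested.

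**Figure D5:**
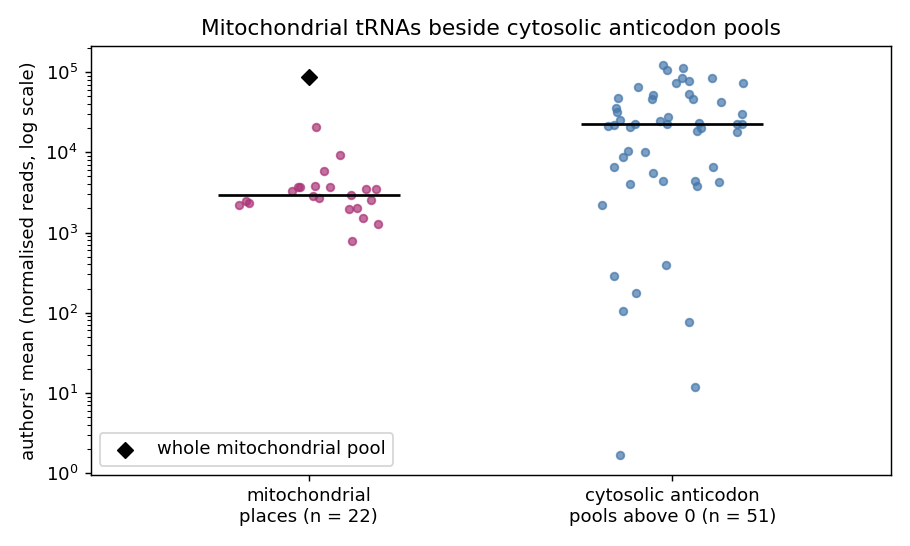
The authors' mean of normalised reads (y axis, log scale) for the 22 mitochondrial places and for the 51 cytosolic anticodon pools above 0, with a line at the median of each set (2918 and 22292) and a diamond for the whole mitochondrial pool (86967). The mitochondrial tRNAs lie between 793 and 21015, within the range of the cytosolic pools.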

How the data were processed

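QuantM-seq libraries of 3 OPC, 2 OL and 2 astrocyte cultures were grouped by the deposited labels. According to the submitters' processing notes and the methods, the authors trimmed reads with cutadapt, mapped them with Bowtie2 to high-confidence mm10 tRNAs with identical genes collapsed plus mitochondrial entries, and counted them with featureCounts by strand at a minimum mapping quality of 10. The authors deposited RPM, scaled to 1000000 cytosolic and mitochondrial reads, for cytosolic tRNAs only. The mitochondrial level of a library was 1000000 minus the sum of its cytosolic RPM. RPM were multiples of a 1-read step within 0.001, which gave the read totals, but too few low values carried that step for a count test. The deposited mean signal of each tRNA over OPC and OL libraries was made by the authors in DESeq2 as the mean of counts over size factors. The other columns of that table, and a table by anticodon, hold the authors' fold changes and p-values and were not used.

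RPM of 52 anticodon pools and the mitochondrial pool were compared as log2(RPM + 1) in limma 3.58.1 (R 4.3.3) with a variance trend, two-sided tests and Benjamini-Hochberg adjustment, at an adjusted p under 0.01. OLs and astrocytes were each fitted with OPCs alone, and OLs against astrocytes in all 7 libraries. The log2 ratio of mitochondrial to cytosolic reads was compared by exact permutation over libraries (Python 3.11.15). The limma procedure was tested on simulated pools with a common spread, for OLs against OPCs alone. The permutation test was tried on short sets of values with a known answer. All mitochondrial tRNAs were described, and cytosolic pools were named where they neighbour the mitochondrial pool in an order. The 3 pools at an adjusted p under 0.05 were named after their values were seen. Reference tRNA genes came from GENCODE on GRCm38, whose strain differs from that of the cells. The members, lists and tests were chosen with earlier results of these data known. Alternatives covered pseudocounts of 0.1 and 10, a minimum mean of 100 RPM, isodecoders of at least 1 RPM, scaling to cytosolic reads or by median of ratios, a fit with no variance trend, other libraries in the fit, a replicate block, a threshold of 0.05, and leaving out each library. For the ratio, the replicate block was added after seeing the data.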

Additional observations from a re-analysis of the deposited data

Results flagged for a closer look

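The mitochondrial pool lay on opposite sides of the OPC level in the cells differentiated from them, lower in 2 of 2 OL libraries and higher in 2 of 2 astrocyte libraries than in any OPC library. The fitted log2 change was -0.73 for OLs and 0.34 for astrocytes. Both changes use the same OPC libraries, and the difference between them is the comparison of OLs with astrocytes, -1.07 on the log2(RPM + 1) scale with an adjusted p of 0.0665 by limma over 53 pools, above the threshold of 0.01. In limma it passed that threshold with pools of at least 100 RPM (adjusted p 0.000109) and with isodecoders in place of pools (0.00154). It also passed with the replicate number as a block (0.0083) and without OPC replicate 3 (0.0023). In the block fit OPC replicate 3 is alone in its block and adds nothing to the spread, so these last settings overlap. The replicate numbers were not taken as pairs. With the other 12 of 16 alternatives the difference did not pass. The difference had the same direction in both OL libraries against both astrocyte libraries. Absence of overlap between groups was common, with 58.5% of the 53 pools in OLs against astrocytes. It held for 49.1% of pools in OLs against OPCs and 34% in astrocytes against OPCs.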

How the results depend on the processing

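Of 116 alternatives 67 concerned a log2 change or read ratio, and none of these changed direction. The log2 change of the mitochondrial pool ran from -0.89 to -0.65 in OLs against OPCs (limma adjusted p 0.0131 to 0.325), from 0.18 to 0.42 in astrocytes against OPCs (0.115 to 0.604) and from -1.17 to -1.0 in OLs against astrocytes (0.000109 to 0.381). The last, of -1.07 in each case, passed the threshold of 0.01 with pools of at least 100 RPM, with isodecoders (adjusted p 0.00154) and with a replicate block (0.0083). Leaving out libraries gave -1.14 to -1.0, and it passed without OPC replicate 3 (0.0023), as 1 pool against 0. Without OPC replicate 3 the change of astrocytes from OPCs was 0.18 in place of 0.34, and that of OLs -0.89. Pools past the threshold were 0 of 53 in each comparison. With isodecoders in place of pools, 10 of 193 features passed in OLs against OPCs. The mitochondrial pool was not among these 10 (limma adjusted p 0.0131). At a threshold of 0.05, 3 of 53 pools passed in that comparison. In OLs against astrocytes 13 of 193 features passed with isodecoders, the mitochondrial pool among them. There 1 pool each passed with pools of at least 100 RPM and with the replicate block, and 0 to 1 without single libraries. The replicate block gave changes of -0.89, 0.18 and -1.07, and log2 read ratios of -0.93, 0.20 and -1.13. The OLs came from some of the OPC cultures, but no source used here says which, so the numbers were not taken as pairs. Deviations of same-numbered OPC and OL libraries correlated at 0.0928 and -0.342, and those of OPC and astrocyte libraries at -0.077 and 0.554. For OL and astrocyte libraries the value was -0.516 in both pairs, which is 1 value by construction. With 2 libraries a group the deviations mirror each other, so these correlations cannot decide whether the numbers are pairs. The leading share was 24.2% with the highest row of each place as well, and 21 tRNAs stayed above 1%. The share of light-strand tRNAs, values per length, codon numbers, cytosolic partners by amino acid and rows of 1 species were not run, since the files do not pair identifiers with tRNAs. With 2 or 3 libraries a group, moderate changes may be missed.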
